A study of Mus musculus with 6 samples.

Results

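The genes described here are 7 that mark the epithelium of the bile ducts, Krt19, Krt7, Krt23, Epcam, Sox9, Spp1 and Cftr, taken by name from the 53546 genes of the count files. They were measured in 6 RNA-seq libraries of liver non-parenchymal cells, the fraction of liver cells left when hepatocytes are depleted. Male mice had received 400 mg/kg of acetaminophen by intraperitoneal injection 6 h before the cells were taken. Of the libraries 3 were wild type and 3 were SRA-/-, that is, without scavenger receptor A, the macrophage receptor for modified lipoproteins encoded by Msr1. All 6 mice received acetaminophen, so no value is a response to the drug, and the 1 comparison is SRA-/- against wild type. The labels used here name neither strain, age nor the disrupted exon.

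Cholangiocytes line the bile ducts and change the bile that hepatocytes secrete by moving chloride, bicarbonate and water. They are told from hepatocytes by keratins 19 and 7, added to the keratins 8 and 18 that both cell types make, and by the surface adhesion molecule Epcam. Sox9 and the Notch pathway drive their formation in the embryo. After liver injury, cells with these markers can expand around the portal tract as a ductular reaction. Few of the 7 genes belong to bile ducts alone, since pancreatic ducts make most of them, mesothelium makes Krt19 and macrophages can make Spp1.

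Library totals ran from 23757203 to 44003902 counts, and 6 counts, which are 3 read pairs where both mates were counted, corresponded to 0.136 to 0.253 CPM (the count over the library total, scaled to 1e6). Msr1, the targeted gene, gave 34.5, 77.2 and 123 CPM in wild type replicates 1, 2 and 3 and 42.0, 33.8 and 38.9 CPM in SRA-/- replicates 1, 2 and 3. A sum over all exons also counts any shortened transcript, and wild type replicate 1 lay within the SRA-/- range, so these values do not check the labels. Endothelial, stellate cell and macrophage markers were detected in every library, as was hepatocyte RNA. SRA-/- replicates 1 and 3 stood apart in pancreatic transcripts, whose values are given with the results they touch. In bulk RNA a lower number of cells of a type and less RNA per cell cannot be told apart.

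All 7 genes had counts in all 6 libraries, most at low levels. Cftr was under the 6 counts given above in every wild type library and in SRA-/- replicate 3. Levels of different genes are compared here as RPKM, which is CPM divided by the length of the annotated exons in kilobases. Spp1 was highest, with a lowest, median and highest library of 5.37, 10.8 and 17.3 RPKM. Sox9 followed at 4.04, 9.15 and 14.1 RPKM, and the ranges of the 2 genes overlapped. Krt19 had 0.590, 1.14 and 1.82 RPKM and Epcam 0.767, 1.11 and 1.92, so that the lowest Sox9 library lay above the highest library of either, while Krt19 and Epcam did not differ beyond their spread. Krt23, at 0.161, 0.431 and 1.07 RPKM, overlapped with Epcam above it and with Krt7 below it, which had 0.191, 0.331 and 0.487. Cftr was last, at 0.00826, 0.0188 and 0.0527 RPKM, below every library of Krt7. The annotated exons of Krt7 (7049 bases) and Cftr (7765 bases) are the longest of the 7, and a gene whose expressed transcripts cover less than that is set low on this scale.

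Against the genes that hepatocytes and bile ducts share, the specific markers were low. Krt18 had a median of 339 RPKM and its partner Krt8 one of 304 RPKM. The ratio of Krt18 to Krt19 per exon length ran from 166 in SRA-/- replicate 2 to 617 in SRA-/- replicate 3. Pkhd1, which encodes the cilium protein fibrocystin and comes from the wider lists, lay nearer to the 7 genes, with a median of 1.32 RPKM.

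**Figure D1:**
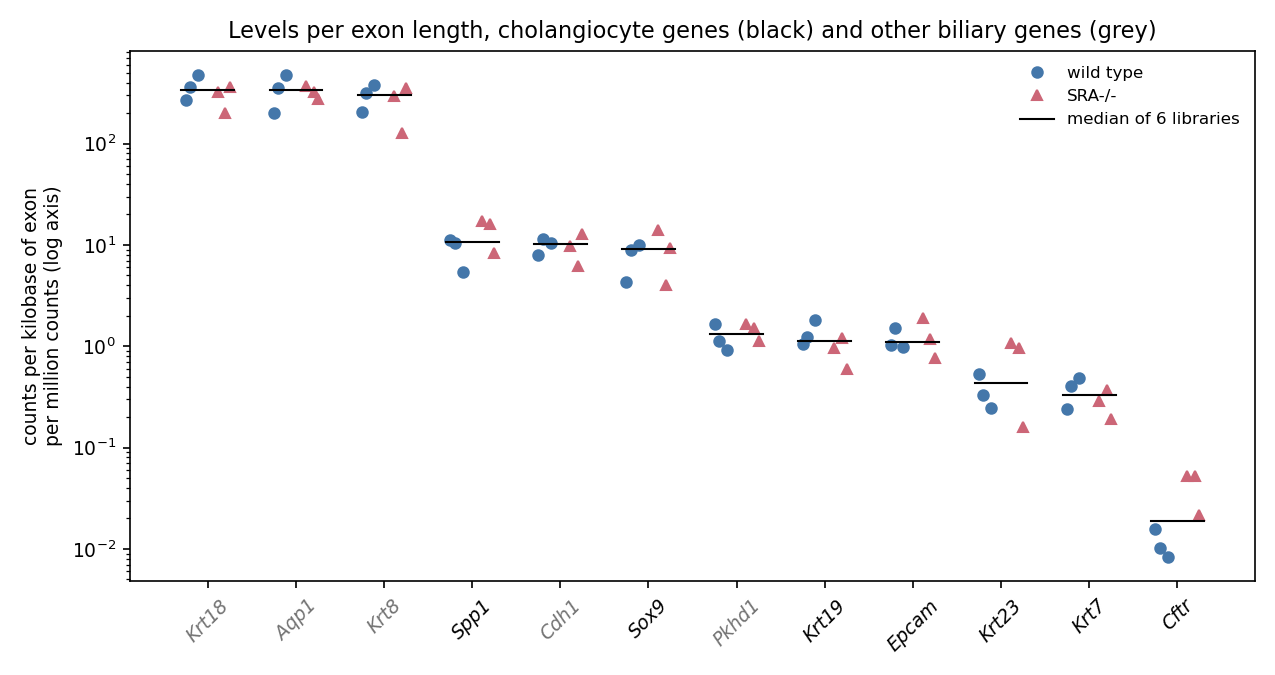
Levels of the 7 cholangiocyte genes (black names) and 5 other genes of bile duct epithelium (grey names) in RPKM on a log axis, with each wild type library as a circle, each SRA-/- library as a triangle and the median of 6 libraries as a line. Spp1 and Sox9, at medians of 10.8 and 9.15, lie above Krt19, Epcam, Krt23 and Krt7, and Cftr lies lowest at 0.0188.

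Krt19 and Krt7 encode the type I and type II keratins whose filaments are the usual histological sign of a bile duct cell. Krt19 (chromosome 11, 100031636 to 100039491, mm39) was counted 64, 57 and 105 times in wild type replicates 1, 2 and 3, and 78, 67 and 26 times in SRA-/- replicates 1, 2 and 3. This is 1.97, 2.27 and 3.37 CPM against 1.77, 2.25 and 1.09 CPM. Wild type replicate 3 was highest and SRA-/- replicate 3 lowest, and the groups overlapped.

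The mean Krt19 level was 2.54 ± 0.74 CPM in wild type and 1.71 ± 0.58 CPM in SRA-/- cells (SD, n = 3 each). The log2 fold change of Krt19 was -0.54 ± 0.33 (SE), with a 95% interval from -1.29 to 0.21 (edgeR, unadjusted p = 0.137, adjusted p = 0.9999). Krt7 (chromosome 15, 101308924 to 101328194) had 1.69, 2.83 and 3.43 CPM in wild type replicates 1, 2 and 3 and 2.05, 2.62 and 1.35 CPM in SRA-/- replicates 1, 2 and 3, from 32 to 107 counts a library. It had the same highest and lowest library as Krt19. For Krt7 the log2 fold change was -0.36 ± 0.33, with an interval from -1.11 to 0.38 (edgeR, unadjusted p = 0.303). Without wild type replicate 3 the value was -0.35 for Krt19 and -0.19 for Krt7, and without SRA-/- replicate 3 it was -0.35 and -0.19 as well. Without SRA-/- replicate 2 it was -0.77 for Krt19 and -0.58 for Krt7. Krt7 shares 77 exonic bases with Gm671 on the other strand, which had at most 2 counts a library.

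Epcam (chromosome 17, 87943407 to 87958557), an adhesion molecule of most simple epithelia, had 2.28, 3.35 and 2.15 CPM in wild type replicates 1, 2 and 3 and 4.20, 2.59 and 1.68 CPM in SRA-/- replicates 1, 2 and 3. The SRA-/- libraries held both the highest and the lowest value. The log2 fold change was 0.14 ± 0.35, with an interval from -0.65 to 0.93 (edgeR, unadjusted p = 0.693). Leaving out SRA-/- replicate 1 turned it to -0.22 and leaving out wild type replicate 3 to -0.01, so no direction is given for this gene.

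Sox9 (chromosome 11, 112673050 to 112678586), the transcription factor gene that marks the ductal lineage, had 18.0, 36.9 and 41.5 CPM in wild type replicates 1, 2 and 3 and 58.3, 16.7 and 38.7 CPM in SRA-/- replicates 1, 2 and 3. These values rest on 497 to 2567 counts a library, so counting error is small beside their spread. The highest and the lowest library were again both SRA-/-, replicates 1 and 2. The mean was 32.1 ± 12.5 CPM in wild type and 37.9 ± 20.8 CPM in SRA-/- cells (SD, n = 3 each).

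The log2 fold change of Sox9 was 0.29 ± 0.40, with an interval from -0.61 to 1.18 (edgeR, unadjusted p = 0.486), and it was -0.10 without SRA-/- replicate 1. Sox9 did not keep a fixed ratio to Krt19. Per exon length it stood at 4.10, 7.29 and 5.52 times Krt19 in wild type replicates 1, 2 and 3 and at 14.8, 3.33 and 15.9 times in SRA-/- replicates 1, 2 and 3.

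Spp1, Krt23 and Cftr shared their order of libraries in part, with SRA-/- replicates 1 and 2 the 2 highest for each. Spp1 (chromosome 5, 104582984 to 104588916) encodes osteopontin, a secreted phosphoprotein that binds integrins and CD44 and is made by bile duct cells and, in injured liver, by macrophages. It had 18.4, 17.2 and 8.85 CPM in wild type replicates 1, 2 and 3 and 28.4, 26.7 and 13.6 CPM in SRA-/- replicates 1, 2 and 3, from 276 to 1251 counts. SRA-/- replicate 3 lay below 2 wild type libraries, so the groups overlapped.

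The mean Spp1 level was 14.8 ± 5.18 CPM in wild type and 22.9 ± 8.13 CPM in SRA-/- cells (SD, n = 3 each). Spp1 had a log2 fold change of 0.61 ± 0.35, with an interval from -0.17 to 1.38 (edgeR, unadjusted p = 0.113, adjusted p = 0.9999). Leaving out 1 library moved it between 0.31, without wild type replicate 3, and 0.91, without wild type replicate 1. Of the 1648 annotated exonic bases of Spp1, 309 are shared with the predicted gene Gm42793 on the same strand, and reads there were counted for neither gene. Gm42793 itself had 2 to 59 counts a library.

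Krt23 (chromosome 11, 99368800 to 99383963), a type I keratin of simple epithelia, was counted 27, 13 and 12 times in wild type replicates 1, 2 and 3, and 74, 45 and 6 times in SRA-/- replicates 1, 2 and 3. In CPM this is 0.830, 0.519 and 0.385 against 1.68, 1.51 and 0.253. SRA-/- replicates 1 and 2 were above all wild type libraries and SRA-/- replicate 3, at the floor of 6 counts, was below them. The log2 fold change was 0.96 ± 0.63, with an interval from -0.45 to 2.38 (edgeR, unadjusted p = 0.159). It ran from 0.61 without SRA-/- replicate 1 to 1.46 without wild type replicate 1, and without SRA-/- replicate 3 it was 1.39, with an adjusted p of 0.9997 by edgeR.

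Cftr (chromosome 6, 18170686 to 18322767), the chloride channel of the apical membrane of bile duct cells, was counted 4, 2 and 2 times in wild type replicates 1, 2 and 3, and 18, 12 and 4 times in SRA-/- replicates 1, 2 and 3. It was the 1 gene of the 7 too low for edgeR's filter and has no test in that fit. Its CPM did not overlap between the groups, at 0.0642 to 0.123 in wild type and 0.168 to 0.409 in SRA-/- libraries, a lack of overlap shared by 6.63% of the genes that were tested, yet wild type replicate 1 and SRA-/- replicate 3 had the same 4 counts. Every wild type library and SRA-/- replicate 3 lay under the floor of 6 counts for Cftr. The ratio of pooled CPM, 0.349 over 0.0901, was 3.87. Counting error alone, with 2 counts taken as 1 fragment, puts its exact 95% limits at 1.26 and 15.8. With no filter on low counts edgeR gave Cftr a log2 fold change of 1.83 (unadjusted p = 0.0434, adjusted p = 0.99998), and DESeq2 gave 1.86 (unadjusted p = 0.0637).

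**Figure D2:**
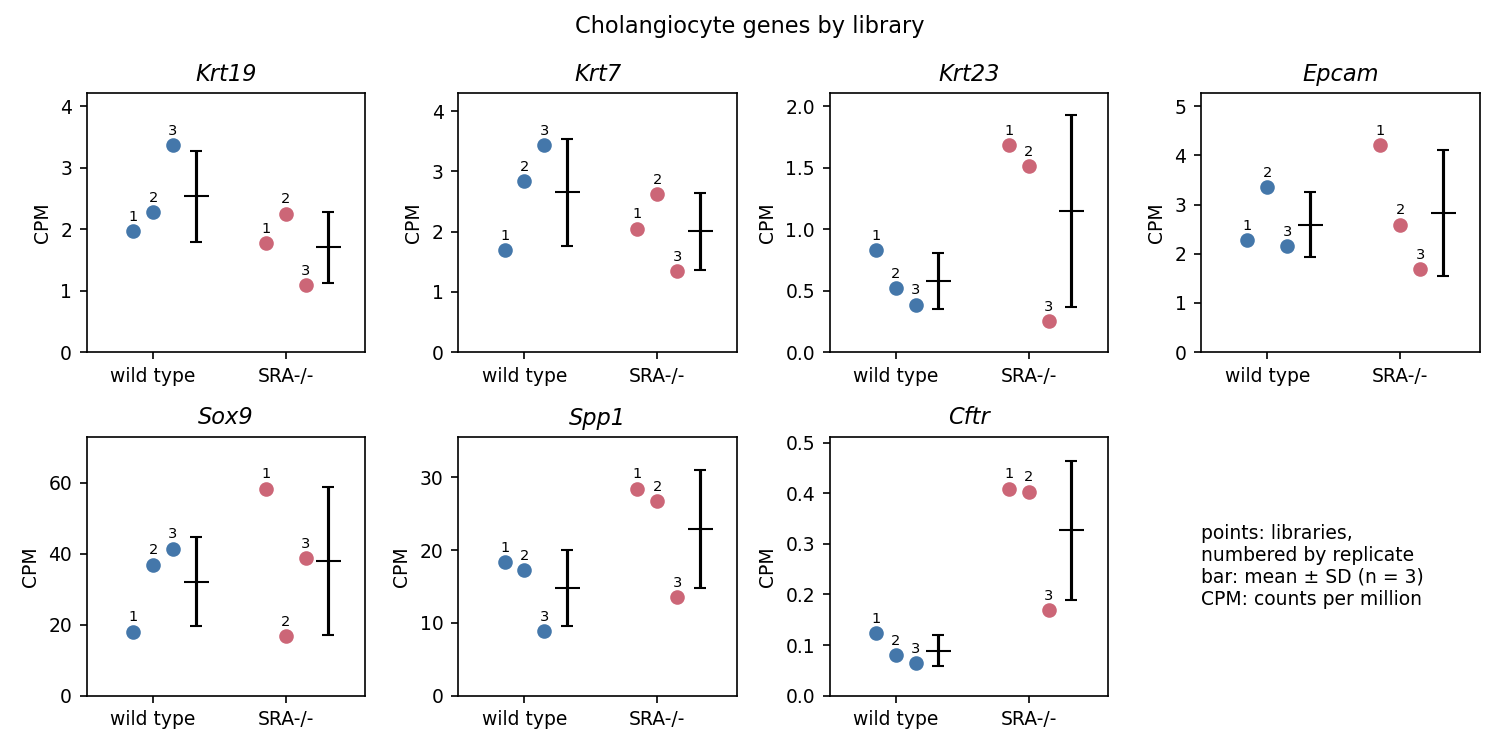
CPM of each of the 7 genes in each library, with points numbered by replicate and a bar for the mean and SD of the 3 libraries of a group, on axes that start at 0. Spp1, Krt23 and Cftr are highest in SRA-/- replicates 1 and 2, Krt19 and Krt7 are highest in wild type replicate 3, and Cftr is the 1 gene whose groups do not overlap.

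The promoters of the 3 genes with the same 2 highest libraries are shown, beside that of Krt7 from the pair with the other order, so that their make-up can be compared. Entries of RefSeq on GRCm38.p6, another build than the mm39 of the counts, were matched for 5 of the 7 genes, and none was used here for Krt19 and Sox9. Each sequence runs from 250 bases before the start site to 50 bases after its first base, on the strand of the gene. Capitals mark matches on either strand to any of 6 sets of letters. The TATA box was searched as TATAAA and a looser TATA-like form as ATAAAA. For AP-1 the letters were TGANTCA, for SOX proteins AACAAT, for TEAD proteins GGAATG and for RBPJ, the Notch effector, TGGGAA. The TATA-like letters were added after the sequences were read, and they overlap TATAAA wherever that is followed by another A.
Spp1: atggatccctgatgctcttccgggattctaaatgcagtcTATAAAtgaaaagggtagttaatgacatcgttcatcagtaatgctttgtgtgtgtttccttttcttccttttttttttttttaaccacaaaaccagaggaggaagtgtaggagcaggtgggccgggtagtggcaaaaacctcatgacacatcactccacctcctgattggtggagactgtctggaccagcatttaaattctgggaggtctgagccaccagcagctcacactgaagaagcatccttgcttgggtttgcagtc
Krt23: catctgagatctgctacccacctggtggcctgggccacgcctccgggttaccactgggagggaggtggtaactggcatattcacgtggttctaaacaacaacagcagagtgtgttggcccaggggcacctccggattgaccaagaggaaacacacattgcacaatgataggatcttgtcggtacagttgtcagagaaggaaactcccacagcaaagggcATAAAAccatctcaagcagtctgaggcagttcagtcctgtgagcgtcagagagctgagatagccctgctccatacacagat
Cftr: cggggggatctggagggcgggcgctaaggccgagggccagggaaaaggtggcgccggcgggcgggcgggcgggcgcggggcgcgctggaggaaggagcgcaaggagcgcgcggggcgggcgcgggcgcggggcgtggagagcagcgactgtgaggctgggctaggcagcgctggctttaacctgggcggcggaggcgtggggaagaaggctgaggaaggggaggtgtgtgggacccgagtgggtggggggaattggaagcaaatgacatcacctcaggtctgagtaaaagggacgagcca
Krt7: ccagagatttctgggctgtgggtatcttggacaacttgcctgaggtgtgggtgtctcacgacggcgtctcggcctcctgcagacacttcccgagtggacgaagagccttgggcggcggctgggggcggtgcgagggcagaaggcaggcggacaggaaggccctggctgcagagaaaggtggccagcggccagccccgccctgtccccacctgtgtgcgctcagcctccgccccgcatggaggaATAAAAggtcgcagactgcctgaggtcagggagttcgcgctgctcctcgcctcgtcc

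These windows lie at chr5:104434861-104435160 (plus strand) for Spp1, chr11:99493071-99493370 (minus strand) for Krt23, chr6:18170437-18170736 (plus strand) for Cftr and chr15:101412153-101412452 (plus strand) for Krt7. ATAAAA began 31 bases before the start site in Krt23 and 7 bases before it in Krt7, and Epcam, not printed, had it 27 bases before. It occurred in 18.5% of the 32851 promoters of the table. In the first of 2 Spp1 entries, the one printed, the match was TATAAA, 211 bases before the start site, which 13.6% of promoters held. The second Spp1 entry, not printed and with 36.7% G and C, had ATAAAA on the other strand, 186 bases before its start site. Cftr had no match, and at 71.3% G and C its promoter was the richest in these bases of the 4, Spp1 being the lowest at 45.3% beside a median of 52.7% over all promoters. AP-1, SOX, TEAD and RBPJ letters, held by 7.81%, 10.7%, 14.7% and 25.6% of promoters, were in none of the 4 windows.

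Tested together with all other genes, 0 of the 6 tested cholangiocyte genes changed between SRA-/- and wild type cells by edgeR, where 10 of 20541 tested genes (0.0487%) did. At an unadjusted p under 0.05 the count in this fit was also 0 of 6, beside 3.22% of all tested genes. DESeq2 and limma-voom with quality weights called 0 as well. None of the 6 was free of overlap between the groups in CPM, against 6.63% of all tested genes. Of the 6, 4 had a log2 fold change above 0, as did 48.3% of all tested genes, and 2, Krt19 and Krt7, had one below 0, and the median was 0.22 beside -0.01 over all tested genes. The intervals reach from 0.410-fold to 1.15-fold for Krt19 and from 0.887-fold to 2.61-fold for Spp1, so that a moderate difference in either gene lies within them.

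**Figure D3:**
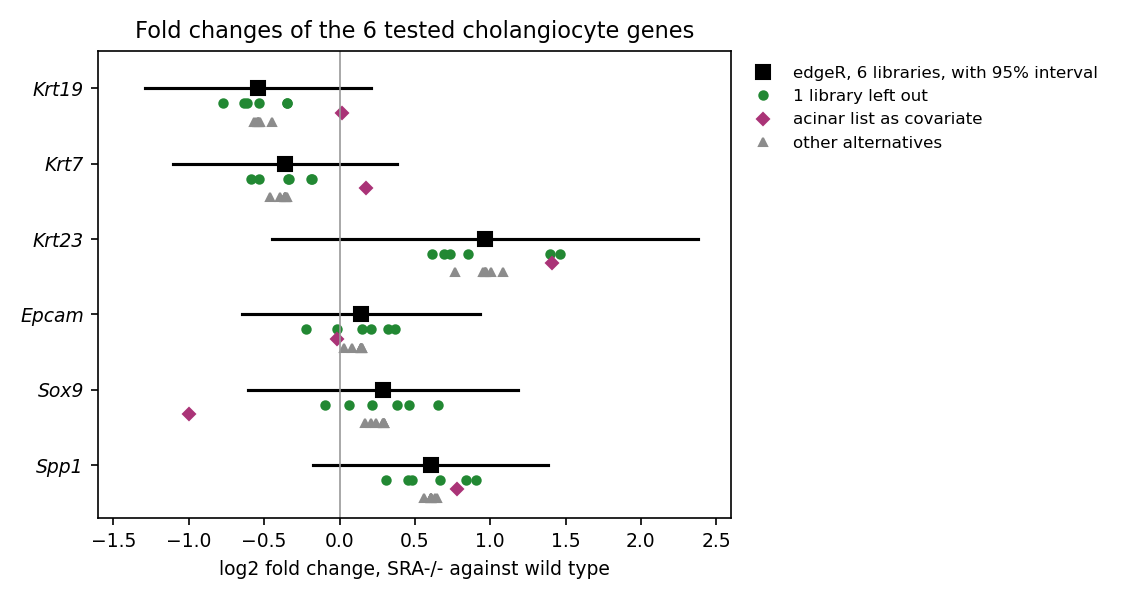
Log2 fold change of the 6 tested cholangiocyte genes, SRA-/- against wild type, by edgeR with its 95% interval (black), and below it the same with 1 library left out (green), with the summed acinar list as a covariate (purple) and under the other alternatives (grey). Every 95% interval crosses 0, and the widest, that of Krt23, runs from -0.45 to 2.38.

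The 6 tested genes did not move as 1 block across the libraries. Likeness was measured as the root mean square difference, over the 6 libraries, of log2 CPM centred on each gene's mean. Here log2 CPM used library totals scaled by edgeR's TMM factors and a prior count of 2. Among the 15 pairs of tested genes Krt19 and Krt7 were closest, with a difference of 0.18. Epcam and Spp1 followed at 0.44 and Krt23 and Spp1 at 0.50, while Krt23 and Sox9 were farthest apart at 1.24. For scale, Krt19 lay 0.41 around its own mean, Krt7 0.37, Epcam 0.38, Spp1 0.59, Sox9 0.61 and Krt23 0.90. Krt19, Krt7, Epcam and Krt23 fell to 26, 32, 40 and 6 counts in their lowest library, so counting error is part of their differences. Sox9 and Spp1, each with at least 276 counts in every library, differed by 0.96.

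Of 13245 genes with a mean of at least 1 CPM, those most like each member were other genes than the 7. They were Ro60, Bik and Npr3 for Krt19 (0.09 to 0.10) and Kif20b, Rasl11a and Rp2 for Krt7 (0.05 to 0.07). For Epcam they were Trpc1, Il34 and Lsm10 (0.10 to 0.13), for Sox9 Ggn, Gbp11 and Thoc6 (0.11 to 0.16) and for Spp1 Slc25a34, Ifit1bl2 and Slc22a5 (0.12 to 0.14). Krt23 had no near match, the clock output gene Dbp at 0.24 and the globin genes Hba-a1 at 0.38 and Hba-a2 at 0.40 being closest. These are the nearest of many genes over 6 libraries, and the globin genes share reads with each other.

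Ratios within a library do not depend on scaling. Per exon length, Spp1 stood at 10.5, 8.51 and 2.96 times Krt19 in wild type replicates 1, 2 and 3 and at 18.1, 13.3 and 13.9 times in SRA-/- replicates 1, 2 and 3. The groups did not overlap in this ratio, nor in that of Cftr to Krt19. An exact two-sided permutation test gave p = 0.1 for both, the smallest value that 3 against 3 libraries allow, and 0.35 after Benjamini-Hochberg adjustment over 7 ratios, which were chosen after the values were seen. The ratio to Krt19 did not overlap between the groups for 20.1% of all tested genes, so a lack of overlap in this ratio is not particular to Spp1 and Cftr.

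Markers of other cells were read beside these values. Pancreatic acinar transcripts were read from a list of 25 genes for digestive enzymes and other acinar proteins. They made up 548, 577 and 1150.4 CPM of wild type replicates 1, 2 and 3, but 6.45, 395 and 4.21 CPM of SRA-/- replicates 1, 2 and 3. The most abundant, Ctrb1, a chymotrypsinogen gene, had 86.2, 97.7 and 188 CPM against 0.886, 62.7 and 0.631 CPM. Of the 25, 23 were tested, all with a log2 fold change below 0, and 0 were called by edgeR. In CPM 20 of these 23 did not overlap between the groups, beside 6.63% of all tested genes. By edgeR 2 had an unadjusted p under 0.05, beside 3.22%. At 0 counts were 12 of the 25 genes in SRA-/- replicate 1 and 17 in SRA-/- replicate 3. Krt19 and Krt7, which pancreatic ducts also make, were highest in the library with the most acinar RNA, wild type replicate 3. They were lowest in the one with the least, SRA-/- replicate 3, as were Epcam and Krt23. But Epcam, Sox9, Spp1, Krt23 and Cftr were highest in SRA-/- replicate 1, whose acinar sum was 6.45 CPM. Sox9 was lowest in SRA-/- replicate 2, whose sum was 395 CPM. With the log2 sum of the acinar list as a covariate, the log2 fold change was 0.02 for Krt19, 0.17 for Krt7, -0.02 for Epcam, -1.002 for Sox9, 0.78 for Spp1 and 1.41 for Krt23, and 0 of the 6 genes were called by edgeR. Among these 6 genes the lowest unadjusted p in that edgeR fit was 0.0977, for Sox9. Every SRA-/- library had a lower acinar sum than every wild type library. Acinar RNA and genotype therefore cannot be told apart in any fit with this covariate. Pancreatic transcription factor genes, led by Nr5a2, which liver also makes, summed to 109 to 212 CPM in wild type and 91.5 to 158 CPM in SRA-/- libraries. Of these Ptf1a was at 0 in all libraries, and Pdx1 had at most 0.0642 CPM. The islet list summed to 0.584 to 5.43 CPM in wild type and 0.210 to 0.403 CPM in SRA-/- libraries, with Iapp at 0 throughout and Chga its most abundant gene.

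Mesothelial markers, a list of 10 genes led by Gpm6a, summed to 7.78 to 11.6 CPM in wild type and 8.71 to 15.8 CPM in SRA-/- libraries. SRA-/- replicate 1, highest in this sum, was also highest in Epcam, Sox9, Spp1, Krt23 and Cftr. Krt19, which mesothelium makes, was below every wild type library there, at 1.77 CPM. Krt7, at 2.05 CPM there, was within the wild type range. Hepatocyte markers, led by Alb, were lowest in wild type replicate 3, at 40538 CPM, where Spp1 and Cftr were lowest too. They were highest in SRA-/- replicate 3, at 117037 CPM, where Krt19, Krt7, Epcam and Krt23 were lowest. Macrophage markers, led by Clec4f, summed to 748 to 2046 CPM in wild type and 1084 to 2229 CPM in SRA-/- libraries. Wild type replicate 1, lowest in this sum, had the highest wild type Spp1 level. SRA-/- replicate 2, highest in this sum, had 26.7 CPM of Spp1, below SRA-/- replicate 1 alone. Stellate markers, led by Reln, summed to 606 to 1027 CPM against 556 to 1007 CPM and endothelial markers, led by Stab2, to 1687 to 3839 CPM against 1844 to 2488 CPM. Lgals4 led the gut epithelial list, which summed to 37.8 to 47.2 CPM against 42.9 to 60.3 CPM. The part of these cells in the members' values was not tested.

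**Figure D4:**
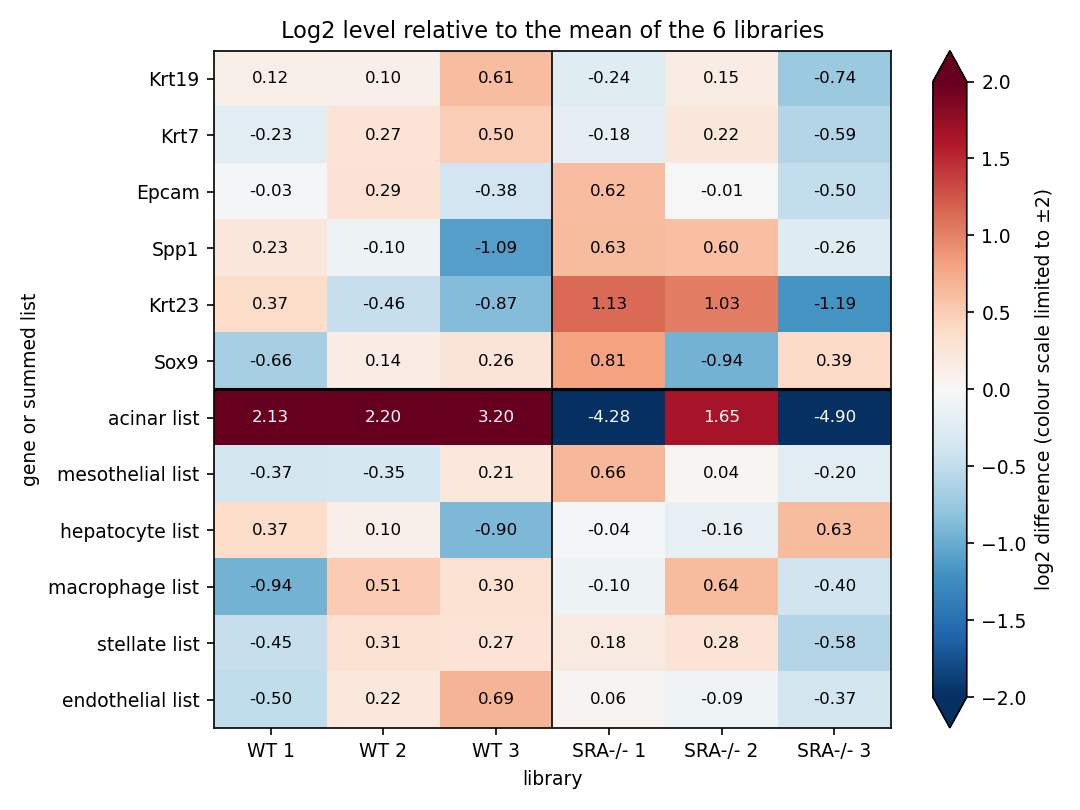
Log2 level of the 6 tested cholangiocyte genes (above the line) and of the summed CPM of 6 marker lists for other cells (below it) in each library, relative to the mean of the 6 libraries, with the value in each cell and red for higher. Krt19 and Krt7 share their pattern, and the acinar list runs from -4.90 in SRA-/- replicate 3 to 3.20 in wild type replicate 3. Gene rows use TMM-scaled library totals with a prior count of 2, and list rows use CPM on plain library totals.

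The wider biology of the bile duct was read from 57 further genes in 5 lists, of which 52 were tested. By edgeR 0 of them changed, 4 had an unadjusted p under 0.05, beside 3.22% of all tested genes, and 4 did not overlap between the groups, beside 6.63%. Log2 fold changes were above 0 for 28 and below 0 for 24, with a median of 0.02. Limma-voom with quality weights called 2 of the 52, Dmbt1 and Cd24a, where it called 0.482% of all tested genes.

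Among regulators of the biliary lineage, all 14 were tested, 8 above and 6 below 0, with a median of 0.01. Ccn1, a matricellular protein and target of YAP, was the most abundant per length at a mean of 90.3 RPKM. It had 168, 168 and 136 CPM in wild type replicates 1, 2 and 3 and 216, 209.7 and 197 CPM in SRA-/- replicates 1, 2 and 3, without overlap, and a log2 fold change of 0.41 ± 0.20 (edgeR, unadjusted p = 0.0709). Onecut1, which encodes HNF6, an activator of duct development, had 0.90 ± 0.45 (unadjusted p 0.0744, as for the other genes of these lists given with p alone) and reached 13.3 CPM in SRA-/- replicate 2, against 2.82 to 6.32 CPM in the other libraries. Without that library the value for Onecut1 was 0.20 (edgeR, unadjusted p = 0.574). With the acinar sum as a covariate it was 1.97 (edgeR, unadjusted p = 0.000877, adjusted p = 0.580), in a fit that cannot tell acinar RNA apart from genotype. Jag1, the Notch ligand whose loss leaves the liver with too few ducts, had 18.7 ± 2.94 CPM in wild type and 14.3 ± 2.30 CPM in SRA-/- cells (SD, n = 3 each). Its groups did not overlap and its log2 fold change was -0.36 ± 0.19 (p 0.0928).

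Of 10 genes for junctions, cytoskeleton and surface, 9 were tested, 3 above and 6 below 0, with a median of -0.01. Cd24a, a surface glycoprotein of duct cells and of many leukocytes, had 3.54, 4.51 and 6.16 CPM in wild type replicates 1, 2 and 3 and 10.7, 7.56 and 7.49 CPM in SRA-/- replicates 1, 2 and 3. Every SRA-/- library was above every wild type library. By edgeR its log2 fold change was 0.89 ± 0.24 (unadjusted p = 0.00446, adjusted p = 0.803). Limma-voom with quality weights gave it 1.04 and an adjusted p of 0.0440. The tight junction gene Cldn4 had 0.38 ± 0.38 (p 0.352), and Krt18, the most abundant of the list per length, had -0.26 ± 0.29 (p 0.395).

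In the list of transport and cilium genes all 12 were tested, 8 above and 4 below 0, with a median of 0.08 and no unadjusted p under 0.05. Atp1b1, a subunit of the sodium pump, had 0.51 ± 0.29 (p 0.112). Sctr, the receptor through which secretin makes ducts secrete bicarbonate, ranged from 2 to 10 counts in wild type and from 5 to 21 in SRA-/- libraries, with 0.94 ± 0.67 (p 0.193). The sodium and glucose cotransporter gene Slc5a1 had 0.56 ± 0.40 (p 0.195). The water channel gene Aqp1, which liver endothelium also makes, was most abundant per length at a mean of 333 RPKM and had -0.05 ± 0.29 (p 0.853).

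Of 10 genes for secreted and mucosal proteins 7 were tested, 4 above and 3 below 0, with a median of 0.31. Dmbt1, a mucin-like scavenger receptor of ducts that is also abundant in mouse pancreas, had 50.7, 83.2 and 92.9 CPM in wild type replicates 1, 2 and 3 and 2.27, 32.5 and 3.54 CPM in SRA-/- replicates 1, 2 and 3. Every SRA-/- library was below every wild type library, and the 4 libraries with acinar sums of 395 CPM or more were its 4 highest; with that sum as a covariate the log2 fold change was -0.79. EdgeR gave Dmbt1 a log2 fold change of -2.53 ± 0.99 (unadjusted p = 0.0403, adjusted p = 0.9999). Without SRA-/- replicate 2 it was -4.65 with an adjusted p of 0.00228, in a fit that called 0.189% of tested genes, and by limma-voom with all libraries it was -4.18 with an adjusted p of 0.0138. Tff2, a trefoil peptide gene of mucous epithelia, was counted 24, 31 and 104 times in wild type replicates 1, 2 and 3, and 2, 26 and 0 times in the SRA-/- ones. The same 4 libraries held its 4 highest levels. EdgeR gave it -2.48 ± 1.02 (p 0.0368), and 0.05 with the acinar sum as a covariate. The part of acinar RNA in Dmbt1 and Tff2 was not tested, and it cannot be told apart from genotype in these fits. Leaving out wild type replicate 3 gave Tff2 -1.71 and leaving out SRA-/- replicate 2 gave -5.71, the 2 ends of its range over such fits. Tspan8 had -0.50 ± 0.31 (p 0.143), and Pigr, the carrier of immunoglobulin A into bile and the most abundant gene of the list per length at a mean of 238 RPKM, had 0.48 ± 0.41 (p 0.270). The 4 genes above 0 were Lcn2, Pigr, Cp and Wfdc2. Each was highest in SRA-/- replicate 3 and lowest in wild type replicate 3, as hepatocyte markers were. The part of hepatocytes in these values was not tested. Ccl20 was at 0 in all 6 libraries.

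The last list held receptors and partners of osteopontin, of which 10 of 11 were tested, 5 above and 5 below 0, with a median of 0.09. Mmp9, a gelatinase that cleaves osteopontin and is stored by neutrophils, had 2.52, 3.91 and 6.96 CPM in wild type replicates 1, 2 and 3 and 17.8, 5.68 and 16.2 CPM in SRA-/- replicates 1, 2 and 3. SRA-/- replicate 2 lay below wild type replicate 3. The log2 fold change of Mmp9 was 1.63 ± 0.45 (edgeR, unadjusted p = 0.00494, adjusted p = 0.841). SRA-/- replicates 1 and 3, its 2 highest libraries, are the 2 lowest in acinar transcripts. With the acinar sum as a covariate the value was 0.31 (edgeR, unadjusted p = 0.617), in a fit that cannot tell acinar RNA apart from genotype. The cause of the Mmp9 difference was not tested. The receptor Cd44 had 0.67 ± 0.36 (p 0.0900), with 31.1 CPM in wild type replicate 1 and 97.4 to 135 CPM in the other libraries. The integrin subunit genes Itga8 and Itgb1 had -0.42 ± 0.23 (p 0.0944) and -0.04 ± 0.27 (p 0.877), and Itgb1 was the most abundant of the list per length at a mean of 78.9 RPKM.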

How the data were processed

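The deposited values are raw counts per gene, 1 file per library. Per the file headers they were made by the authors with featureCounts 2.0.2 over exons grouped by gene name, without strand and without counting mates as pairs, so 1 fragment can add 2 counts. The headers also name GENCODE M26. STAR, FastQC and the mm39 build are named in the submitters' processing notes. RNA was depleted of ribosomal RNA, per the labels' protocols.

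CPM used library totals and RPKM also the exon length of the files. Of 53546 genes, 20541 passed filterByExpr and were tested with edgeR 4.0.16 (R 4.3.3; TMM, robust quasi-likelihood), with Benjamini-Hochberg adjustment over all of them and a threshold of 0.05. Intervals of 95% came from the SE and the model's degrees of freedom. The script was tested on simulated data. Alternatives were DESeq2 1.42.0, limma 3.58.1, other scalings and filters, an acinar covariate, a replicate block and leaving out each library. Floors and count intervals cover counting error only. The labels number the libraries of each group as replicates, and p-values measure the spread between them.

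Named were all 7 cholangiocyte genes, the 3 genes of each wider list with the smallest p and its most abundant gene per length, the most abundant gene of each other-cell list, and the 3 genes most like each member with a mean of at least 1 CPM, leaving out predicted genes and clones. Further genes (Krt8, Cdh1, Pkhd1, Pdx1, Ptf1a, Iapp, Ccl20, Lcn2, Cp, Wfdc2) were named after their values were seen. Members and lists were chosen with earlier results of these data known.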

Additional observations from a re-analysis of the deposited data

How the results depend on the processing

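No cholangiocyte gene was called under any alternative run, and Krt19 and Krt7 stayed below 0 and Krt23 and Spp1 above 0 when any 1 library was left out. The lowest adjusted p was 0.435, for Spp1 by limma-voom. An unadjusted edgeR p under 0.05 was less stable. Without SRA-/- replicate 3 it held for 3 of 7 members, Krt23, Spp1 and Cftr, beside 608 of 21370 genes. Without wild type replicate 1 it held for 2 of 7, Spp1 and Cftr, beside 1490 of 21243. It also held for Spp1 with the replicate block (447 of 20541 genes) and Cftr with no filter (1090 of 35174). Over all genes, 10 were called by edgeR, 60 by DESeq2, 99 by limma-voom, 32 with no filter on low counts, 2 with the acinar covariate and 3 to 40 with 1 library left out, the highest without SRA-/- replicate 2. Of the wider biliary genes 0 were called by edgeR, 2 by limma-voom and 0 to 1 with 1 library left out. The acinar covariate turned the log2 fold change to 0.019 for Krt19, 0.17 for Krt7, -0.016 for Epcam, -1.002 for Sox9, -0.0048 for Cldn4, -0.0018 for Atp1b1, 0.030 for Aqp1, 0.045 for Tff2 and -0.081 for Pigr. Limma-voom turned Cldn4 to -0.0082. Leaving out 1 library gave a range of -0.22 to 0.37 for Epcam, which was -0.01 without wild type replicate 3, and of -0.10 to 0.65 for Sox9. In the same way Aqp1 ran from -0.27 to 0.19, being above 0 where wild type replicate 3 was left out, and Itgb1 from -0.23 to 0.13. Itgb1 was above 0 in 3 of these fits, at 0.0076, 0.12 and 0.13. The cause was not tested. Same-numbered libraries did not deviate together (correlations of -0.29, -0.14 and -0.13 across genes), none correlated best with its own number, and a replicate block called 5 genes, 0 of them cholangiocyte genes. With 6 to 74 counts of Krt23 and 2 to 18 of Cftr a library, counting error limits these 2 genes most.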
